A study of Homo sapiens with 4 samples.

Results

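The 44 autophagy genes described here were chosen by name, from what their products are known to do, with earlier results of these data known. They cover the kinases that start autophagy, the lipid kinase complex, the factors that supply membrane, the conjugation enzymes, the ATG8 family, the cargo receptors, the mitophagy receptors and the factors that bring the autophagosome to the lysosome. All 44 were found among the 40205 genes listed in the files, 43 of them under their current symbol and *ATG101* under its older symbol *C12orf44*, and all 44 were expressed above the filter used for testing. RNA-seq was performed on 4 libraries of human lung adenocarcinoma (LUAD) cells 24 h after transfection. NC 1 and NC 2 came from cells given negative control siRNA. In si-circZFR 1 and si-circZFR 2 the cells had received siRNA against circZFR, a circular RNA formed from exons of *ZFR*. Both groups were grown in RPMI medium with serum, and no allele or further agent is given for either.

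Autophagy packs cytoplasmic material into a double-membraned vesicle, the autophagosome, which then fuses with the lysosome for digestion. The ULK1 kinase complex starts the process, the BECN1-PIK3C3 lipid kinase complex marks the growing membrane, and ubiquitin-like conjugation attaches ATG8 proteins such as LC3 to it. Cargo receptors such as p62 (*SQSTM1*) link cargo to these ATG8 proteins, and the pathway recycles nutrients when cells are starved, which is why it is followed in tumor cells under energy stress. Autophagic flux is set largely at the protein level and was not measured by RNA-seq, so every value here is a transcript level.

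Each library held between 11040050 and 12816868 reads, and 98.4% to 98.6% of these were on listed genes. *ZFR*, the host gene of the circle, was at 26.0 and 31.9 scaled RPKM in NC 1 and NC 2 and at 5.25 and 4.63 in si-circZFR 1 and si-circZFR 2, and it fell by a log2FC of -2.33 (SE 0.17, FDR = 0.0388 by limma). These gene-level values do not separate the circle from linear *ZFR* mRNA. The article reports that by RT-PCR the siRNA left *ZFR* without a detectable change in A549 and HCC827 cells. The fall seen here differs from that report, and the reason was not tested. The labels name H1299 cells, whereas the design text and the article name A549. *CDKN2A*, which A549 has lost, was listed at 0 in all 4 libraries. Of 3 genes known to be high in A549, *AKR1B10* (1296 to 1677 scaled RPKM) and *ALDH1A1* (753 to 1301) were high and *FGB* was low (0.775 to 2.60). The epithelial keratins *KRT7*, *KRT8* and *KRT18* were at 735 scaled RPKM or more in every library. Of the markers of other cell types, *PTPRC* and *DCN* were at 0, *PECAM1* did not exceed 0.0239 and *COL1A1* was between 0.612 and 1.89.

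The level of a gene is given as scaled RPKM, which is reads per gene corrected for gene length and for the total of the library, as deposited, after scaling between libraries. A change is given as log2FC, the mean log2(scaled RPKM + 1) of si-circZFR minus that of NC, with its standard error (SE) from limma. A gene was called changed at a Benjamini-Hochberg FDR below 0.05 over the 13885 genes tested together with an absolute log2FC above 1. With n = 2 per group, an exact two-sided permutation test cannot go below p = 0.333, so only the limma fit across all genes was used. Nothing states that replicates came from separate cultures, and the p-values measure only the spread between these libraries.

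None of the 44 autophagy genes passed this threshold by limma, against 0.0576% of all genes tested (8 genes), and none did with a filter on read counts, where 1.34% of all genes passed. With limma-voom on the recovered read counts, 1 member passed (*SQSTM1*), against 2.19% of all genes in either direction and 1.16% on the lower side. The article used edgeR, with batch effects removed by the SVA package, a step not taken here. With the same FDR and fold limits it reports more changed genes than any of these fits. The number of genes called thus depends on the method. At an unadjusted p below 0.05, 6 members (13.6%) were found, against 21.7% of all genes. These were *SQSTM1*, *ATG4D*, *MAP1LC3B* and *RAB7A* on the lower side (9.09% of members, against 11.5% of all genes) and *ULK1* and *ATG10* on the higher side (4.55% of members, against 10.1%). Both si-circZFR libraries lay below both NC libraries for 14 members (31.8%, against 28.1% of all genes) and above both for 10 members (22.7%, against 28.1%). The groups overlapped for the other 20 members.

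The 44 members were centered close to the median of all genes. Their median log2FC was -0.05, against 0.01 over all genes tested, and 25 members had a log2FC below 0 and 19 above it. Without scaling between libraries the median of all genes moved to 0.15 and that of the members to 0.11, and the split became 14 below 0 and 30 above. The median size of the log2FC, without its sign, was 0.20 in the members and 0.27 over all genes, and 11.4% of the members had a log2FC larger than 0.5 in size, against 24.0% of all genes. The median size of the difference between replicates of these 44 genes was 0.17 in NC and 0.13 in si-circZFR. Over all genes tested it was 0.25 and 0.16, so the members also differed less between replicates. The sign of the log2FC was the same whichever library was left out for 30 of the 44 members.

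**Figure D1:**
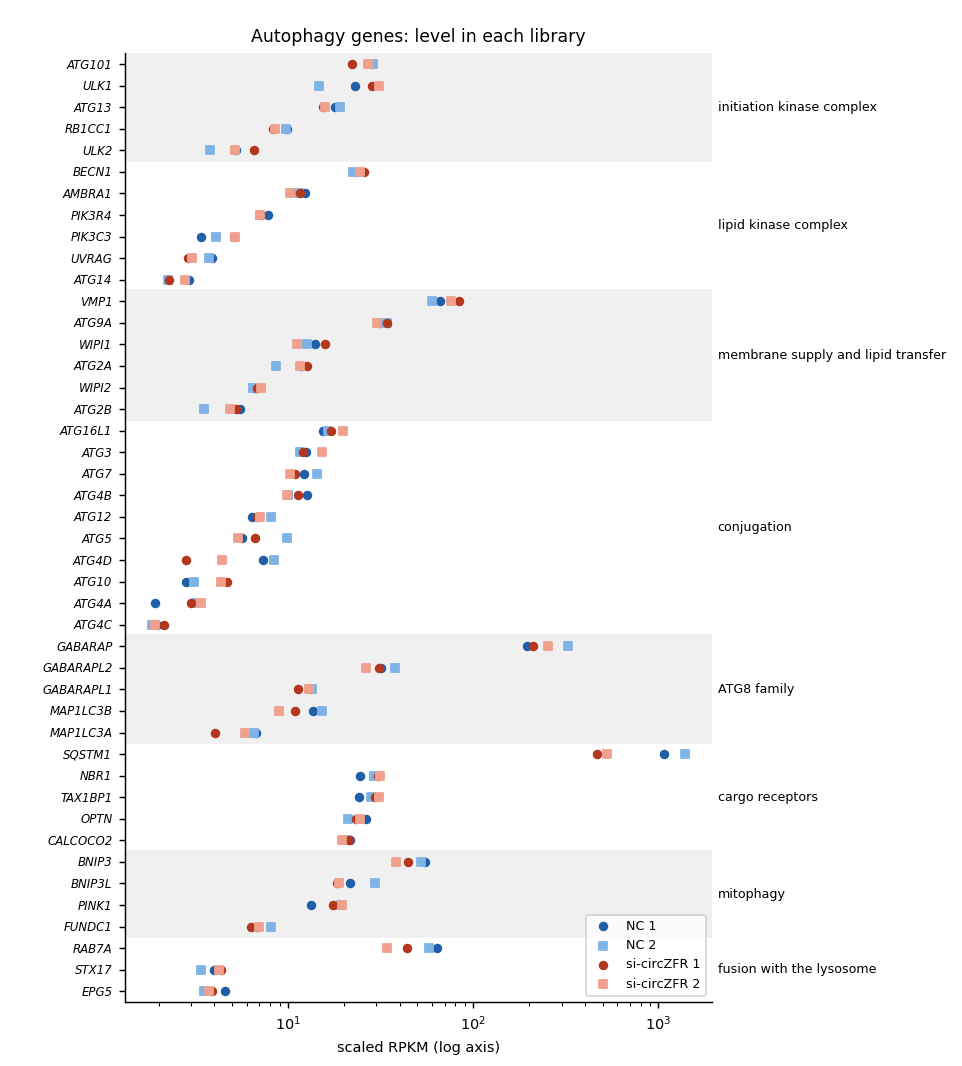
Level of each of the 44 autophagy genes in each library, in scaled RPKM on a log axis, grouped by role and ordered within a role by mean level. *SQSTM1* stood apart from the other members, at 1067 and 1394 in the NC libraries (blue) and 465 and 528 in the si-circZFR libraries (red).

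Levels per length covered a wide range. The mean over the 4 libraries ran from 1.97 scaled RPKM for *ATG4C* to 864 for *SQSTM1*, with a median of 12.1 over the members. *SQSTM1* was 3.52 times as high as the next member, *GABARAP*. The read counts behind these levels ran from 57 to 47077 per gene and library, with a median of 503.5, and 38 of the 44 members had at least 100 reads in every library. At this depth and n, the 95% confidence interval of a log2FC extended by 0.37 to 0.74 on either side, with a median of 0.42. A difference smaller than its own interval could not reach an unadjusted p below 0.05. The threshold for a call asked for more, and *SQSTM1*, at a log2FC of -1.30, did not pass it (FDR = 0.102 by limma). The lack of a call therefore does not exclude changes larger than 0.42.

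Sequences are shown for 5 members because of a word that an earlier analysis of these same data had linked to lower values. Of the 4 members on the lower side at an unadjusted p below 0.05, 3 hold this word or 7 bases of it in their 3′UTR. The word is CTGACTCA, searched with its first 7 bases (CTGACTC) and its last 7 bases (TGACTCA), which share 6 bases, on the mRNA strand only. Because the word came from these libraries, its presence is a description and not independent evidence. Windows of 30 bases are printed 5′ to 3′ on the strand of the mRNA, from GENCODE annotation on GRCh38, with the match in capitals. The first pair hold the whole word, *MAP1LC3B* holds its first 7 bases, and *SQSTM1* and *STX17* hold its last 7.
ATG4D: cccctcagggcCTGACTCAcgtactgtagt
ATG5: tcaagtactttCTGACTCAcatacagtaga
MAP1LC3B: gctgaaggtccCTGACTCctaagagaacca
SQSTM1: tttgttttaaaTGACTCAtaggtccctgac
STX17: ccaactttaagTGACTCAgttccttatatc
The windows lie at chr19:10553302-10553331 on the plus strand for *ATG4D*, chr6:106185867-106185896 on the minus strand for *ATG5*, chr16:87403664-87403693 on the plus strand for *MAP1LC3B*, chr5:179836928-179836957 on the plus strand for *SQSTM1* and chr9:99973695-99973724 on the plus strand for *STX17*. *ATG5* and *STX17* are shown for contrast and were picked after their values were seen.

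Among the cargo receptors, which tether ubiquitinated or other cargo to ATG8 proteins, *SQSTM1* had the largest difference of all 44 members. *SQSTM1* (chromosome 5, 179806398 to 179838078, plus strand, GRCh38), which encodes p62, was at 1067 scaled RPKM in NC 1, 1394 in NC 2, 465 in si-circZFR 1 and 528 in si-circZFR 2. Both si-circZFR libraries were lower than both NC libraries, and the si-circZFR mean of 496 ± 44.7 was 40.3% of the NC mean of 1231 ± 231 (SD, n = 2 each). The counts behind these levels were 36505, 47077, 15535 and 18852 reads in the same order. The log2FC was -1.30 (SE 0.29, 95% confidence interval -2.01 to -0.58, unadjusted p = 0.0045, FDR = 0.102 by limma), which did not pass. *SQSTM1* passed in limma-voom on the recovered read counts (log2FC -1.30, FDR = 0.0369) and without NC 1 (log2FC -1.49, FDR = 0.0383), a fit in which NC 2 is alone in its group and is assumed to vary like the si-circZFR libraries. The other fits with a library left out gave an FDR of 0.166, 0.42 and 0.553 by limma. In bulk RNA, fewer expressing cells and less RNA per cell cannot be told apart.

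The other 4 cargo receptors lay close to 0. *NBR1*, a receptor for ubiquitinated aggregates and peroxisomes, was at 24.6 and 29.1 scaled RPKM in NC and at 30.7 and 31.3 in si-circZFR, with a log2FC of 0.20 (SE 0.16). *TAX1BP1*, which works with p62 and NBR1 on protein aggregates, was at 24.1 and 28.2 in NC and at 29.4 and 31.1 in si-circZFR, with a log2FC of 0.21 (SE 0.16). For both genes the si-circZFR libraries lay above both NC libraries, with a 95% confidence interval that included 0, and NC 1 was the lowest library. *OPTN* and *CALCOCO2*, receptors used in mitophagy and in the clearance of bacteria, had overlapping groups and log2FC of 0.02 and -0.05.

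*ATG8* family members are the ubiquitin-like proteins that coat the autophagosome membrane and bind the receptors. The log2FC of all 5 was below 0, with a median of -0.26, but 2 of the 5 were above 0 without scaling between libraries and 3 of the 5 when gene length and GC content were corrected for. Both si-circZFR libraries lay below both NC libraries for 4 of the 5, against 28.1% of all genes, and 1 of the 5 reached an unadjusted p below 0.05 on the lower side, against 11.5% of all genes. *MAP1LC3B* (chromosome 16, 87383953 to 87404779, plus strand, GRCh38), which encodes the LC3B protein used to count autophagosomes, was at 13.7 and 15.2 scaled RPKM in NC 1 and NC 2 and at 10.9 and 8.90 in si-circZFR 1 and si-circZFR 2. The si-circZFR libraries were both lower, and the means were 14.4 ± 1.04 and 9.90 ± 1.42 (SD, n = 2 each). The log2FC was -0.51 (SE 0.17, unadjusted p = 0.0261, FDR = 0.178 by limma), and it ran from -0.63 to -0.36 when each library was left out. *MAP1LC3B* has a near-identical copy, *MAP1LC3B2*, with 112, 135, 98 and 104 reads in the 4 libraries, beside 490, 536, 381 and 332 reads for *MAP1LC3B*. How reads shared by such copies were counted is not given in the sources used here, so the value of *MAP1LC3B* is uncertain.

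*MAP1LC3A*, the related LC3A gene, was at 6.76 and 6.52 scaled RPKM in NC and at 4.06 and 5.85 in si-circZFR, with a log2FC of -0.38 (SE 0.20). *GABARAPL2*, whose product acts late in autophagosome formation and in Golgi traffic, was at 31.7 and 37.7 in NC and at 31.2 and 26.3 in si-circZFR, with a log2FC of -0.26 (SE 0.18) that became 0.10 with the length and GC correction. *GABARAP*, the family member with the highest level, was at 196 and 323 in NC and at 210.1 and 253 in si-circZFR, with a log2FC of -0.12 (SE 0.30) whose sign turned with the setting. The groups overlapped for *GABARAP*, and the spread between its NC libraries was the larger one.

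*ATG4D* stood out among the 10 conjugation genes, whose products process ATG8 proteins and join them to lipid. In this group 5 genes had a log2FC below 0 and 5 above it, and the median was 0.00. *ATG4D* (chromosome 19, 10543895 to 10553418, plus strand, GRCh38), which encodes a protease that cleaves ATG8 precursors and releases them from lipid, was at 7.35 scaled RPKM in NC 1, 8.37 in NC 2, 2.81 in si-circZFR 1 and 4.42 in si-circZFR 2. The si-circZFR libraries were both lower, with a mean of 3.61 ± 1.14 against 7.86 ± 0.721 in NC (SD, n = 2 each). These levels rested on 177, 199, 66 and 111 reads. The log2FC was -0.96 (SE 0.22, 95% confidence interval -1.50 to -0.42, unadjusted p = 0.00504, FDR = 0.107 by limma), which did not pass. Left-out libraries moved it from -1.20 without si-circZFR 2 to -0.69 without si-circZFR 1. The log2FC of *ATG4D* was -1.14 by limma-voom (FDR = 0.0647) and -1.13 with the length and GC correction (FDR = 0.0761 by limma). With a pseudocount of 0.1 it was -1.13 (FDR = 0.126 by limma), and without scaling between libraries it was -0.81. *ATG4D* passed in none of these fits. The other ATG4 proteases, *ATG4A*, *ATG4B* and *ATG4C*, had overlapping groups and log2FC between -0.09 and 0.26.

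*ATG10*, the E2-like enzyme that passes ATG12 to ATG5, was on the higher side. *ATG10* (chromosome 5, 81972023 to 82276857, plus strand, GRCh38) was at 2.80 and 3.10 scaled RPKM in NC and at 4.71 and 4.33 in si-circZFR, from 96, 105, 158 and 155 reads. Both si-circZFR libraries were higher, and the log2FC was 0.48 (SE 0.17, unadjusted p = 0.0279, FDR = 0.182 by limma). *ATG7*, the E1-like enzyme of both conjugation systems, was at 12.2 and 14.4 in NC and at 11.0 and 10.2 in si-circZFR, with a log2FC of -0.30 (SE 0.16). *ATG16L1*, which places the conjugation machinery on the membrane and had the highest level of the group, was at 15.5 and 16.5 in NC and at 17.0 and 19.8 in si-circZFR, with a log2FC of 0.19 (SE 0.16). The 95% confidence intervals of both included 0. *ATG5*, whose 3′UTR window is printed above, was at 5.62 and 9.87 in NC and at 6.62 and 5.36 in si-circZFR, so that its groups overlapped.

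**Figure D2:**
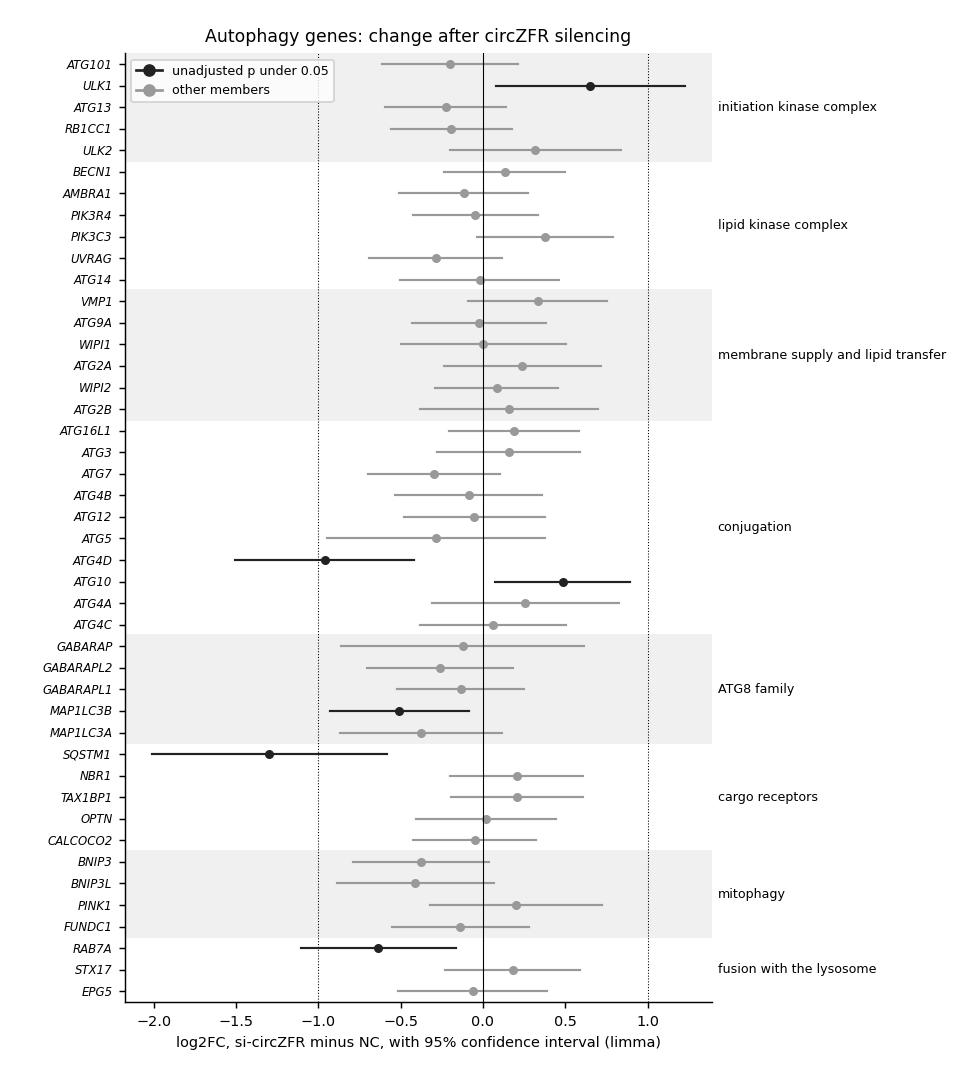
log2FC of each of the 44 autophagy genes (si-circZFR minus NC) with its 95% confidence interval from limma, grouped by role, with dotted lines at a log2FC of 1 in size. The intervals of 6 genes (black) leave out 0, and *SQSTM1*, at -1.30, is the only member beyond a dotted line in this fit. *ATG4D*, at -0.96 here, lay beyond -1 in some of the other fits.

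In the initiation kinase complex, the kinase itself and its partners lay on different sides of 0. *ULK1* (chromosome 12, 131894622 to 131923150, plus strand, GRCh38), which encodes the starting kinase, was at 23.0 scaled RPKM in NC 1, 14.8 in NC 2, 28.3 in si-circZFR 1 and 30.9 in si-circZFR 2. Both si-circZFR libraries were higher, and NC 2 was the lowest, with means of 18.9 ± 5.81 and 29.6 ± 1.81 (SD, n = 2 each). The log2FC was 0.65 (SE 0.23, unadjusted p = 0.0323, FDR = 0.193 by limma). It was 0.35 without NC 2, 0.95 without NC 1 (FDR = 0.0396 by limma, under the fold threshold) and 0.32 with the length and GC correction. *ULK2*, the related kinase, was at 5.27 and 3.77 in NC and at 6.52 and 5.18 in si-circZFR, with overlapping groups and a log2FC of 0.32 (SE 0.21).

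The 3 partners of the kinase, *ATG13*, *ATG101* and *RB1CC1*, had both si-circZFR libraries below both NC libraries and log2FC between -0.23 and -0.19. Over all genes tested, 28.1% had both si-circZFR libraries below both NC libraries. Without scaling between libraries the log2FC of the 3 were -0.061, -0.032 and -0.035 in the same order. With the length and GC correction they were -0.33, -0.063 and -0.31. *ATG13*, which bridges ULK1 and the scaffold protein, was at 17.9 and 19.1 scaled RPKM in NC and at 15.4 and 15.9 in si-circZFR, with a log2FC of -0.23 (SE 0.15). *ATG101*, which stabilizes ATG13 and had the highest level of the complex, was at 28.1 and 28.6 in NC and at 22.3 and 27.1 in si-circZFR, with a log2FC of -0.20 (SE 0.17). None of the 3 reached an unadjusted p below 0.05.

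None of the 6 members of the lipid kinase complex, which makes phosphatidylinositol 3-phosphate on the growing membrane, reached an unadjusted p below 0.05. *PIK3C3*, the catalytic subunit, was at 3.40 and 4.07 scaled RPKM in NC and at 5.09 and 5.16 in si-circZFR, with a log2FC of 0.38 (SE 0.17, unadjusted p = 0.0682, FDR = 0.263 by limma). *UVRAG*, a subunit of the form of the complex that acts in endosome traffic, was at 3.91 and 3.74 in NC and at 2.87 and 3.04 in si-circZFR, with a log2FC of -0.29 (SE 0.16). *BECN1*, which encodes the scaffold Beclin 1, was at 23.4 and 22.3 in NC and at 25.7 and 24.6 in si-circZFR, with a log2FC of 0.13 (SE 0.15). The catalytic subunit and the scaffold were thus above NC in both si-circZFR libraries, and *UVRAG* below it, each with a confidence interval that included 0. *AMBRA1*, *PIK3R4* and *ATG14* had overlapping groups and log2FC between -0.12 and -0.02.

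The 6 genes of membrane supply and lipid transfer had a median log2FC of 0.12, and 5 of the 6 were above 0, but with the length and GC correction the median was -0.02 and 2 of the 6 were above 0. *VMP1*, an endoplasmic reticulum scramblase needed for autophagosome formation, was at 66.1 and 59.7 scaled RPKM in NC and at 83.4 and 75.6 in si-circZFR. Both si-circZFR libraries were higher, and the log2FC was 0.33 (SE 0.17, unadjusted p = 0.101, FDR = 0.313 by limma). *ATG2A* and *ATG2B* encode the lipid transfer proteins that feed the growing membrane. *ATG2A* was at 11.8 and 8.63 in NC and at 12.6 and 11.6 in si-circZFR, with a log2FC of 0.24 (SE 0.19). *ATG2B* was at 5.48 and 3.52 in NC and at 5.22 and 4.86 in si-circZFR, with a log2FC of 0.16 (SE 0.22). For both genes the groups overlapped, NC 2 was the lowest library, and the sign turned with the length and GC correction, as it did for *WIPI2*. The rest of the group, the scramblase gene *ATG9A* and the lipid-binding *WIPI1* and *WIPI2*, had log2FC between -0.02 and 0.08.

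Mitophagy receptors and sensors direct damaged or surplus mitochondria into autophagosomes, and 3 of the 4 measured here had a log2FC below 0, without reaching an unadjusted p below 0.05. With the length and GC correction, and likewise without scaling between libraries, 2 of the 4 were below 0, since *FUNDC1* turned to 0.18 and 0.02. *BNIP3*, a hypoxia-induced receptor on the outer membrane, was at 54.9 and 52.5 scaled RPKM in NC and at 44.5 and 38.1 in si-circZFR, with a log2FC of -0.37 (SE 0.17, unadjusted p = 0.0681, FDR = 0.263 by limma). It became -0.15 with the length and GC correction, and a near-identical pseudogene, *BNIP3P1*, held 310, 258, 194 and 219 reads in the 4 libraries, so the split between these copies is uncertain. *BNIP3L*, its relative that clears mitochondria from maturing red cells, was at 21.5 and 29.4 in NC and at 18.5 and 18.9 in si-circZFR, with a log2FC of -0.41 (SE 0.19). For both receptors the si-circZFR libraries lay below both NC libraries. *PINK1*, the kinase that marks damaged mitochondria, was at 13.3 and 19.2 in NC and at 17.6 and 19.5 in si-circZFR, with overlapping groups and a log2FC of 0.20 (SE 0.21). *FUNDC1*, a further outer membrane receptor, had overlapping groups and a log2FC of -0.14.

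Of the 3 genes for fusion with the lysosome, *RAB7A* was on the lower side. *RAB7A* (chromosome 3, 128693669 to 128825942, plus strand, GRCh38), a small GTPase of late endosomes and lysosomes, was at 63.9 and 58.0 scaled RPKM in NC and at 44.1 and 34.2 in si-circZFR, from 1674, 1500, 1127 and 935 reads. Both si-circZFR libraries were lower, and the si-circZFR mean of 39.1 ± 6.95 was 64.2% of the NC mean of 61.0 ± 4.18 (SD, n = 2 each). The log2FC was -0.64 (SE 0.19, unadjusted p = 0.0163, FDR = 0.153 by limma), between -0.80 and -0.45 with each library left out. *STX17*, the SNARE protein of the autophagosome, was at 3.97 and 3.41 in NC and at 4.35 and 4.25 in si-circZFR, with a log2FC of 0.18 (SE 0.17). *EPG5*, a tether between autophagosomes and lysosomes, was at 4.59 and 3.52 in NC and at 3.88 and 3.75 in si-circZFR, with overlapping groups and a log2FC of -0.06 (SE 0.18). *RAB7A*, whose product also serves endosomes, was thus the only one of the 3 at an unadjusted p below 0.05.

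**Figure D3:**
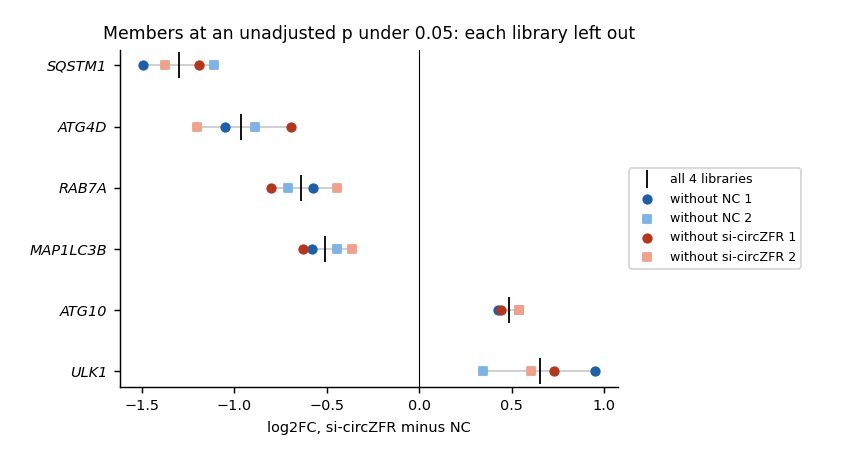
log2FC (si-circZFR minus NC) of the 6 members at an unadjusted p below 0.05, with all 4 libraries (black bar) and with each library left out in turn (points). No point crosses 0, and *ULK1* spread the most, from 0.35 without NC 2 to 0.95 without NC 1.

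The 3′UTR matches were then set beside the changes. Because the word was linked to lower values in these same libraries, lower values in its holders are not independent evidence. The counts that follow are a description. A 3′UTR was available for 43 members, all but *GABARAP*, and for 11111 of the genes tested. Of these 43, 8 (18.6%) held CTGACTC or TGACTCA, against 16.0% of all genes, and 2 (4.65%) held the whole word, against 3.14%. The 8 holders were *ATG4D*, *ATG5*, *ATG13*, *MAP1LC3B*, *SQSTM1*, *CALCOCO2*, *STX17* and *EPG5*. Their log2FC ran from -1.30 to 0.18 with a median of -0.26, and 7 of the 8 were below 0, against 53.3% of all holders among the genes tested. The 35 members without either had a median of 0.00, with 17 below 0 and 18 above. Over all genes tested the medians were -0.03 in holders and 0.04 in the rest. By longest match they were -0.105 for the whole word, -0.025 for the first 7 bases only and 0.001 for the last 7 only. They were 0.049 for the middle 6 bases only and 0.037 with none of these. *SQSTM1*, *CALCOCO2*, *STX17* and *EPG5* hold the last 7 bases only, the class with a median near 0. On the lower side at an unadjusted p below 0.05 were 3 of the 8 holders (*SQSTM1*, *ATG4D* and *MAP1LC3B*) and 1 of the 35 others (*RAB7A*). Over all genes tested, 14.2% of holders and 7.95% of the rest were on the lower side at this p. Among the 40 other autophagy genes tested, none held the whole word, 5 held either 7-base word, and 1 of these 5 and 4 of the 35 others were on the lower side at this p. Holders had longer 3′UTRs, with medians of 2152 and 1324 bases in the members and 2619 and 922 over all genes, and the part of length in these values was not tested.

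**Figure D4:**
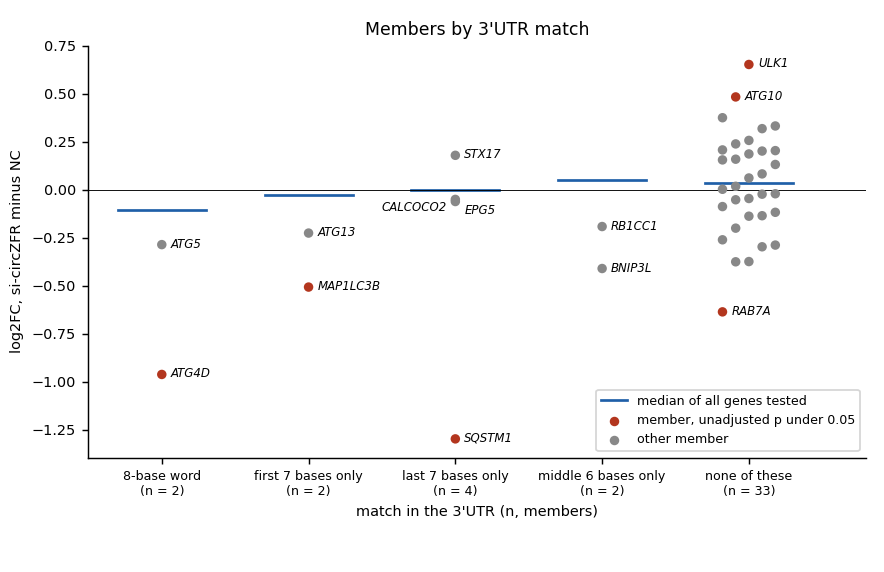
log2FC (si-circZFR minus NC) of the 43 members with a 3′UTR, by the longest match to the word CTGACTCA, with the median of all genes tested in each class (blue line). Of the 8 members in the 3 classes on the left, *STX17* alone lay above 0, and *RAB7A* was the only member at an unadjusted p below 0.05 on the lower side without a match.

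The siRNA listed in the study's supplementary material was compared in the same way, since the seed of an siRNA (bases 2 to 8 of a strand) can pair with other mRNAs. Its sense strand is printed with capitals on the stretch that the seed of the guide strand pairs with.
si-circZFR sense strand: ccaagcuggccCUUACGUctt
The matching site, CTTACGT, was found in the 3′UTR of 0 of the 43 members and of 2.33% of all genes tested. The site for the seed of the sense strand, CAGCTTG, was in 5 members (11.6%, against 12.7% of all genes), which were *ULK1*, *ULK2*, *UVRAG*, *ATG9A* and *ATG4A*. The median log2FC of these 5 was 0.26, against -0.05 in the other members. A match says only that these letters are in the 3′UTR, and which siRNA was used for these libraries is not stated beyond this listing.

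A second list of 44 genes of the same pathway, beside the members, was described in the same way. Of these, 40 were expressed above the filter, none passed the threshold by limma, and 5 (12.5%) were lower and 5 (12.5%) higher at an unadjusted p below 0.05, against 11.5% and 10.1% of all genes, with a median log2FC of -0.04. Both si-circZFR libraries lay below both NC libraries for 13 of the 40 (32.5%) and above both for 12 (30%), against 28.1% of all genes each way. *NRBF2*, a subunit that stimulates the lipid kinase complex, was at 7.55 and 9.70 scaled RPKM in NC and at 5.11 and 3.62 in si-circZFR, with a log2FC of -0.85 (SE 0.21, unadjusted p = 0.00794, FDR = 0.122 by limma), or -0.44 with the length and GC correction. *TMEM41B*, a scramblase that acts with VMP1, was at 3.97 and 2.52 in NC and at 6.43 and 6.33 in si-circZFR, with a log2FC of 0.82 (SE 0.21, unadjusted p = 0.00914, FDR = 0.127 by limma), and it passed without NC 1 (log2FC 1.07, FDR = 0.0369), where NC 2 is alone in its group, but not in the other fits with a library left out (log2FC 0.57 to 0.83, FDR = 0.195, 0.405 and 0.598 by limma). *BCL2L13*, a mitophagy receptor, was at 7.23 and 7.87 in NC and at 11.1 and 12.6 in si-circZFR, with a log2FC of 0.59 (SE 0.16, unadjusted p = 0.0109, FDR = 0.133 by limma). All 3 had groups that did not overlap, with *NRBF2* lower and *TMEM41B* and *BCL2L13* higher in si-circZFR.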

How the data were processed

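RNA was extracted with TRIzol, libraries were made with an Ion Total RNA-Seq kit and sequenced on the Ion Proton, and the authors deposited 1 RPKM value per gene and library. The article states alignment to hg38, the submitters' processing notes name GRCh37, and the counting tool is not given in the sources used here. Groups came from the sample labels.

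Whole read counts were recovered from the RPKM steps for 24282 of the 24289 genes above 0 (99.97%, tolerance 0.001 reads). Genes reaching an RPKM of 1 in 2 or more libraries were kept (13885), and libraries were scaled by a trimmed mean of log ratios (30% of ratios and 5% of levels trimmed), with factors of 0.981, 0.904, 1.02 and 1.11 for NC 1, NC 2, si-circZFR 1 and si-circZFR 2. Values were tested as log2(scaled RPKM + 1) with limma 3.58.1 in R 4.3.3 (trended prior variance, 3.81 prior degrees of freedom), with Benjamini-Hochberg adjustment. This scale understates changes of low genes. The fit was tried on simulated data, but only with changes larger than that of any member. That trial says nothing about smaller changes. The alternatives were other scalings, filters, pseudocounts and a prior variance without trend, a correction of log2 values for gene length and GC content, limma-voom on the recovered reads, a replicate block and leaving out each library. 3′UTRs were taken from GENCODE 44 on GRCh38, and no coordinate was converted.

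The members and lists were chosen with earlier results of these data known. Values in every library are given for members at an unadjusted p below 0.05 and, in each of 8 roles, for the 3 with the smallest p and the one with the highest level, and for the 3 other autophagy genes with the smallest p.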

Additional observations from a re-analysis of the deposited data

How the results depend on the processing

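Across 15 alternative settings, the sign of the log2FC turned in at least 1 setting for 20 of the 44 members and in none for 24, and no member at an unadjusted p below 0.05 turned. The number of members past the threshold went from 0 to 1 (*SQSTM1*) with limma-voom, where 304 genes passed in place of 8, and ranged from 0 to 1 with each library left out. With a filter on read counts in place of RPKM, 198 genes passed and no member did. The FDR of *SQSTM1* ran from 0.0369 to 0.553 over all settings.

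Members lower at an unadjusted p below 0.05 numbered 4, and 2 to 7 with each library left out. Those higher numbered 2, but 1 with no filter, 4 without scaling and 0 to 4 with each library left out. Of the other autophagy genes, the 5 lower became 2 without scaling and 0 to 6 with a library left out, and the 5 higher became 10 without scaling, 2 with the length and GC correction, 3 with that correction and the replicate block, and 1 to 8 with a library left out. Members whose si-circZFR libraries lay below both NC libraries went from 14 to 8 without scaling and ranged from 15 to 22 with a library left out, where 3 libraries remain. Those above went from 10 to 17 without scaling and ranged from 13 to 19. The median log2FC of the members was 0.11 without scaling, where that of all genes tested was 0.15, and between -0.076 and -0.014 with a library left out. For the counts in this paragraph, the share of all genes under each alternative setting was not worked out. Moves of the members can thus not be told apart from moves of all genes. With 3 libraries, groups that do not overlap are also easier to reach.

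*ZFR* missed the FDR threshold with no filter (log2FC -2.33, FDR = 0.226), with a pseudocount of 0.1 (-2.52, 0.0506), with an untrended prior variance (-2.33, 0.0568) and with the length and GC correction plus the block (-2.41, 0.0557), and it ranged from -2.48 to -2.20 with a library left out, with an FDR of 0.0327 without NC 1, 0.162 without NC 2, 0.136 without si-circZFR 1 and 0.235 without si-circZFR 2. With the length and GC correction, alone or with the block, the sign turned for 9 members, among them *ATG2A* (-0.11), *ATG2B* (-0.040), *GABARAP* (0.26) and *GABARAPL2* (0.10), and without scaling for 11, among them *EPG5* (0.076) and *GABARAP* (0.050). With a library left out it turned for 3 to 7 members, among them *ATG2B* (-0.10 to 0.42), *EPG5* (-0.22 to 0.090), *GABARAP* (-0.49 to 0.23, above 0 without NC 2 and, at 0.026, without si-circZFR 1) and *PINK1* (-0.054 to 0.45).

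The labels number replicates 1 and 2 in both groups but do not say that a number marks a shared batch, and same-numbered libraries deviated together only weakly (correlation 0.069). With the replicate number as a block, 0 members passed, the median log2FC stayed at -0.05 and *SQSTM1* had an FDR of 0.135. Length and GC content were known for 92.8% of the genes tested. The causes of these moves were not tested.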
